A study of Mus musculus with 2 samples.

Results

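A set of 10 genes of late neutrophil development were followed in erythroid progenitor cells of the mouse: S100a8 and S100a9, which encode the subunits of calprotectin, the specific (secondary) granule genes Ltf, Camp, Ngp, Lcn2, Mmp8 and Chil3, and the gelatinase granule and late neutrophil genes Mmp9 and Retnlg. The 10 genes are members of the 21461 nuclear protein-coding genes measured, and all 10 were found in the tables by their gene identifiers. They were chosen by measured values, namely the TPM of granulocyte genes in these same libraries, so their levels are given as a description with no test. The study deposited 2 total RNA libraries of 1 group, replicates 1 and 2 of erythroid progenitor cells (CFU-Ery, the colony-forming erythroid stage), and no second condition. The cells were primary cells from male C57BL/6J mice of 5 to 6 weeks, with a bone marrow progenitor isolation protocol named in the labels. Each library started from 1 ng of RNA, with fragments of 150 to 400 nt and added spike-in RNAs. The labels give the libraries separate biological samples under a single donor record and do not say whether these were separate animals, so the spread between them may be technical. They name no batch, no transgene and no treatment.

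Neutrophils fill their granules in sequence. Primary granules, with myeloperoxidase and serine proteases, form in promyelocytes, specific granules in myelocytes and metamyelocytes, and gelatinase granules later, so granule genes mark the stage at which a granulocyte precursor stands. Calprotectin is a calcium- and zinc-binding protein of the cytosol of neutrophils and monocytes, not of granules. In bone marrow, transcription of specific granule genes is known to depend on the factor C/EBP epsilon, and erythroid progenitors are not classed among the cells that make these proteins.

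Replicate 1 held 143491647 expected counts in all, and replicate 2 held 110634458. Mitochondrial genes took 90.3% and 88.3% of these counts, and nuclear protein-coding genes 3.29% and 3.70%, or 4717790 and 4093202 counts. TPM (a per-length transcript level scaled by the authors to a total of 1000000 over all entries) is therefore on a lowered scale for nuclear genes, and rescaling it so that nuclear protein-coding genes sum to 1000000 multiplies it by 43.1 and 37.0. The label of the cells was checked against erythroid markers: 12 of 12 stood at 1 TPM or more in both libraries, with a summed level of 6827 and 8313 TPM, among them the erythroid factor genes Gata1 (5.94 and 5.68 TPM) and Klf1 (6.27 and 9.00 TPM). In these bulk libraries a level is a sum over all cells present, so a few cells with much of an RNA and many cells with little of it cannot be told apart.

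The members lie on 4 chromosomes of the mm10 (GRCm38) genome. S100a9 (ENSMUSG00000056071.8, chr3:90692632-90695721, minus strand) and S100a8 (ENSMUSG00000056054.8, chr3:90668978-90670035, plus strand) were 22596 bases apart on opposite strands, and Chil3 (chr3:106147554-106167564, minus strand) was the third member on chromosome 3. Chromosome 9 holds 4 members, of which Camp (chr9:109847379-109849617, minus strand), Ngp (chr9:110419747-110423012, plus strand) and Ltf (chr9:111019271-111042767, plus strand) follow each other at distances of 570 and 596 kb. The remaining members were Mmp8 (chr9:7558456-7568485), Lcn2 (chr2:32384633-32388252), Mmp9 (chr2:164940780-164955850) and Retnlg (chr16:48872621-48874496). No other annotated gene of GENCODE release 21 overlapped a member.

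The sequences before the start sites of the 3 most abundant members and of Chil3 are shown because they carry the matches to the C/EBP motif that most members had upstream. They are given on the gene's own strand, 5′ to 3′, from RefSeq on GRCm38.p6, and capitals mark matches to TTNNGNAA on either strand.
S100a9 (chr3:90695722-90695971, minus strand, -250 to -1 from the start site): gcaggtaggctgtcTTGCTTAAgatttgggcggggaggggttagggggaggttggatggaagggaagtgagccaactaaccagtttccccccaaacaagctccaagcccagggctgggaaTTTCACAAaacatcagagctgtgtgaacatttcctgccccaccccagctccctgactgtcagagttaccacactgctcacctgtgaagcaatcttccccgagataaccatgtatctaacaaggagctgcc
S100a8 (chr3:90668821-90668977, plus strand, -250 to -94): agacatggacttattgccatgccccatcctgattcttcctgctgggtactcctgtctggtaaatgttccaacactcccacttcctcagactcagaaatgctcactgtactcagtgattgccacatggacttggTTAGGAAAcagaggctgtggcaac
Ngp (chr9:110419558-110419746, plus strand, -250 to -62): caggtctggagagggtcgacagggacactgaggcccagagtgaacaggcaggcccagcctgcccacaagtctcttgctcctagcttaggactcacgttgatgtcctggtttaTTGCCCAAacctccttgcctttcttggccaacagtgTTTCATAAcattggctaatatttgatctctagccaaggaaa
Chil3 (chr3:106167565-106167814, minus strand, -250 to -1): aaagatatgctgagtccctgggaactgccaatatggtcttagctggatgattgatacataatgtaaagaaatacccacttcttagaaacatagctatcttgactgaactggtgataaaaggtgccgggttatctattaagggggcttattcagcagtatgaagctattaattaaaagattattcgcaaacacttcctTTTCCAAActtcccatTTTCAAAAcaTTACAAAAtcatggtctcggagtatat
The S100a8 and Ngp stretches end where a GENCODE transcript begins, and another Ngp match, at -11 to -4, lies beyond the letters shown. Chil3 carried 3 matches close together, at -53 to -46, -37 to -30 and -27 to -20, whereas the matches of S100a9 were at -236 to -229 and -130 to -123.

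A RefSeq promoter was matched for 9 members, and the 250 bases before the start were searched on both strands. The C/EBP letters TTNNGNAA were found in 8 of the 9, against 36.9% of 32851 promoters of the same length. Camp, the exception, held none of the 4 motifs searched. GAGGAA, a core bound by the myeloid factor PU.1, was found in 4 of 9 (S100a8, Lcn2, Ltf and Mmp8) against 23.3% of promoters. AGATAA, the core of GATA factor sites, was found in 3 of 9 (S100a9, Chil3 and Ltf) against 9.99%. TATAAA was found in 1 of 9, S100a8 at -30 to -25, against 12.4%. For 5 members (Camp, Lcn2, Ltf, Ngp and S100a8) the window reaches into a GENCODE transcript, and for Lcn2 it does so from its first base. Counting only matches before the first GENCODE exon base of the member, the members with a match were 7 for C/EBP, 3 for PU.1, 3 for GATA and 0 for TATAAA, while the shares over all promoters were not limited in this way. A match describes letters and not a bound site.

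**Figure D1:**
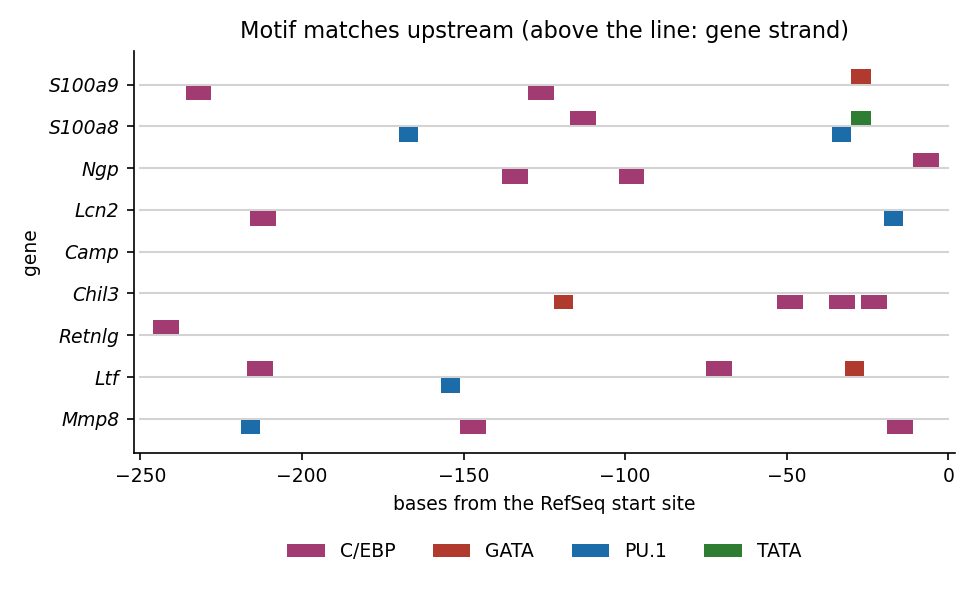
Matches to 4 motifs in the 250 bases before the RefSeq start site of 9 members; the horizontal axis is the distance from the start site in bases, each row is a gene, and bars above and below a row are on the gene strand and the opposite strand. C/EBP matches were present in 8 rows and absent from that of Camp.

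The calprotectin genes were the most abundant members. S100a9 stood at 172.76 TPM in replicate 1 and 249.50 in replicate 2 (mean 211 ± 54.3 SD, n = 2), from 8592 and 9620 expected counts. S100a8 stood at 170.45 and 236.81 TPM (204 ± 46.9), from 5771 and 6185 counts. They ranked 5 and 6 among the 21461 nuclear protein-coding genes by mean TPM, directly below the globin genes Hbb-bt (1118.24 and 1416.69 TPM) and Hba-a1 (1121.92 and 1352.81 TPM), and directly above the histone gene Hist1h4d (148.08 and 216.80 TPM). S100a9 was above Slc4a1, the anion exchanger band 3 of the red cell membrane, by 1.39- and 1.68-fold in TPM, but in expected counts, with no scaling by length, it was at 0.119- and 0.142-fold of Slc4a1. The 2 subunit genes were close to parity per length: the log2 ratio of S100a9 to S100a8 was 0.02 (95% counting interval -0.029 to 0.068) in replicate 1 and 0.08 (0.029 to 0.122) in replicate 2. In expected counts, with no scaling by length, S100a9 was 1.49- and 1.56-fold higher, since its effective length was 376 nt in replicate 1 against 256 nt for S100a8. Counting intervals here and below cover counting error only, since reads without molecular identifiers are not independent molecules.

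Other S100 genes were far lower. The 14 listed reached a sum of 16.6 and 20.4 TPM, so the calprotectin pair was 20.7- and 23.8-fold above them together. Of these, 3 stood at 1 TPM or more in both libraries: S100a11 (11.54 and 13.61), S100a6 (1.88 and 2.12) and S100a10 (1.42 and 1.13), the last a partner of annexin A2. S100a4 stood at 0.88 and 2.32 TPM, and 7 were listed at 0 counts in both. Over all 21461 nuclear protein-coding genes, 12.6% stood at 1 TPM or more in both libraries and 9033 were at 0 counts in both.

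Among the specific granule members, Ngp was highest, followed by Lcn2 and Camp. Ngp, which encodes a granule protein of the cathelicidin and cystatin families, stood at 85.49 and 108.80 TPM (97.1 ± 16.5), rank 15 by mean TPM. By expected counts it was the highest member, with 11564 and 11469. Lcn2, whose product binds bacterial siderophores and so withholds iron, stood at 29.36 and 38.08 TPM (33.7 ± 6.17), rank 54. Camp, the cathelicidin gene, stood at 24.45 and 35.95 TPM (30.2 ± 8.13), rank 66. The Lcn2 and Camp ranges over the libraries overlapped, although Lcn2 was the higher within each.

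Chil3, a chitinase-like lectin gene also called Ym1, stood at 12.34 and 15.52 TPM (13.9 ± 2.25), rank 210. Ltf, the gene of the iron-binding protein lactoferrin and the usual marker of specific granules, stood at 3.80 and 5.06 TPM (4.43 ± 0.891), rank 733. Ltf has the longest leading transcript of the members at 2742 nt, and its 1309 and 1362 counts were close to the 1497 and 1708 of Camp. Per length, Camp was 6.43- and 7.10-fold above Ltf, and Ngp 22.5- and 21.5-fold above it. Mmp8, the neutrophil collagenase gene, was the lowest member at 0.60 and 1.45 TPM (1.03 ± 0.601), rank 3004, from 184 and 346 counts.

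Of the late genes, Retnlg, a resistin-like gene, stood at 11.63 and 13.91 TPM (12.8 ± 1.61), rank 236. Mmp9, which encodes gelatinase B, stood at 0.98 and 1.24 TPM (1.11 ± 0.184), rank 2824, from 186 and 197 counts. In the order of mean TPM, from S100a9, S100a8, Ngp, Lcn2, Camp, Chil3, Retnlg, Ltf and Mmp9 down to Mmp8, 4 pairs of neighbours overlapped between libraries: S100a9 with S100a8, Lcn2 with Camp, Chil3 with Retnlg, and Mmp9 with Mmp8. The other neighbours did not overlap. Mmp9 and Mmp8 alone changed places, with Mmp9 at 1.63-fold of Mmp8 in replicate 1 and 0.855-fold in replicate 2.

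**Figure D2:**
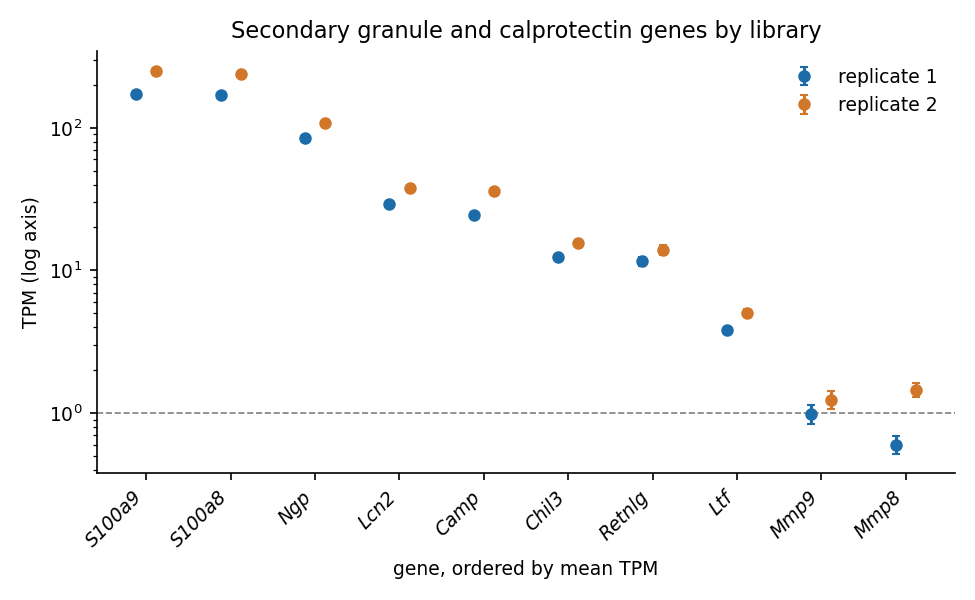
Level of each member in TPM on a log axis, with a point for each library and bars for the 95% counting interval; the dashed line marks 1 TPM. Every member was higher in replicate 2 on this scale, from 249.50 TPM for S100a9 down to 1.24 for Mmp9, and the lowest value was the 0.60 TPM of Mmp8 in replicate 1.

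As a group, 8 of 10 members stood at 1 TPM or more in both libraries, against 12.6% of nuclear protein-coding genes, a count that the choice of members by level fixes in part. The exceptions, Mmp8 and Mmp9, passed 1 TPM in replicate 2 only. The median member stood at 18.4 and 25.7 TPM (22.1 ± 5.19), against 0.01 and 0.02 TPM for all nuclear protein-coding genes. The members' sum of 511.86 and 706.32 TPM was 2.21% and 2.61% of nuclear protein-coding TPM (2.41 ± 0.287), and the calprotectin pair made up 1.48% and 1.80% of it. The other 8 members held 0.728% and 0.814%.

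The genes of primary granules, made earlier in granulocyte development, were also present at lower summed levels. The 8 listed summed to 62.9 and 67.3 TPM, so the members' sum was 8.14-fold higher in replicate 1 and 10.5-fold higher in replicate 2 (log2 ratio 3.02, interval 2.99 to 3.06, and 3.39, interval 3.36 to 3.43). Without S100a8 and S100a9, which are not granule proteins, it was 2.68- and 3.27-fold higher. In expected counts, with no scaling by length, the folds were 3.93 and 4.73 for all members. Without the calprotectin pair they were 2.32 and 2.70 in counts. The sums cover 10 and 8 genes, and the choice of members by level fixes these folds in part. Mpo, myeloperoxidase, was the highest at 27.26 and 26.16 TPM. The neutrophil serine protease genes followed, with Elane at 15.80 and 18.50, Prtn3 at 7.05 and 6.84, and Ctsg at 5.75 and 8.79 TPM. Ms4a3 stood at 3.78 and 4.09, Serpinb1a, an inhibitor of these proteases, at 2.19 and 2.16, and Prss57 at 1.06 and 0.73 TPM. Bpi was listed at 0 counts in both libraries, and a count of 0 allows up to 3 counts in a library, 6.36e-05% and 7.33e-05% of the nuclear protein-coding counts. Single members crossed this list: Ngp was 3.14- and 4.16-fold above Mpo, Camp was 0.897- and 1.37-fold of it, and Ltf 0.139- and 0.193-fold. In expected counts Camp was below Mpo in both libraries, at 0.306- and 0.414-fold.

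Other genes of specific and gelatinase granules were detected with a lower median than the members, a difference that the choice of members by level fixes in part. Of the 20 listed, 10 stood at 1 TPM or more in both libraries, against 12.6% of nuclear protein-coding genes. Their median was 1.06 and 1.59 TPM over all 20. Lyz2, the lysozyme gene shared by monocytes and macrophages, stood at 39.44 and 53.15 TPM. Anxa1 stood at 7.57 and 9.38, Pglyrp1, a peptidoglycan recognition protein gene, at 5.36 and 4.11, and Wfdc21 at 3.15 and 4.63 TPM.

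Genes of the mature neutrophil had a lower median still, at 0.31 and 0.83 TPM. Of the 20 listed, 7 stood at 1 TPM or more in both libraries, against 12.6% of nuclear protein-coding genes. The 4 highest were Ifitm6 (3.36 and 5.25), Mxd1 (1.84 and 2.37), Fcgr3 (1.91 and 2.18) and Fpr2, a formyl peptide receptor gene (1.51 and 2.02 TPM). Of the 6 NADPH oxidase genes, which encode the complex behind the respiratory burst, 4 stood at 1 TPM or more in both: Rac2 (2.67 and 3.49), Cybb (2.66 and 2.38), Cyba (2.05 and 2.00) and Ncf1 (1.06 and 1.22 TPM). Ncf4 stood at 0.89 and 1.73 TPM.

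Of 12 regulators of granulocyte genes, 2 (16.7%) stood at 1 TPM or more in both libraries, against 12.6% of nuclear protein-coding genes. These were Runx1 at 2.57 and 1.85 TPM and Spi1, the gene of PU.1, at 1.32 and 1.05. The median regulator stood at 0.36 and 0.22 TPM, against 0.01 and 0.02 TPM for all nuclear protein-coding genes. On the rescaled scale Spi1 stood at 57.0 and 38.9 and Cebpe at 15.1 and 27.4. Cebpe, which encodes C/EBP epsilon, stood at 0.35 and 0.74 TPM, so that Ngp was 244- and 147-fold above it. Cebpa stood at 0.18 in both libraries, Cebpb at 0.15 and 0.18, and Cebpd at 0.37 and 0.20 TPM. The remaining 6 were Ets1 (0.55 and 0.25), Irf8 (0.45 and 0.33), Rara (0.44 and 0.12), Klf5 (0.26 and 0.24), Lef1 (0.22 and 0.17) and Gfi1 (0.12 and 0.13 TPM). RNA levels of these factors were 1.32 TPM or less for all but Runx1.

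Close relatives and partners of the members were mostly low or at 0 counts, as were most nuclear protein-coding genes. Of all 21461 of these, 12.6% stood at 1 TPM or more in both libraries and 9033 were at 0 counts in both. Of 15 other matrix metalloproteinase genes none stood at 1 TPM, 9 were at 0 counts in both libraries, and their sum was 0.10 and 0.13 TPM. Genes of metalloproteinase inhibitors were low as well, with Timp2 highest at 0.27 and 0.40 TPM and Timp1 at 0 counts. Among 13 paralogs and relatives, Trf, the transferrin gene and relative of Ltf, stood at 2.97 and 2.83 TPM, and Chil1 at 0.45 and 2.13. The Chil3 paralog Chil4 was listed at 0 counts, and Chil3 was the single member whose estimated count carried a posterior SD above 0, at 0.23 and 0.16 reads. Of 9 genes for receptors of the members' products, Bsg, basigin, stood at 45.18 and 64.39 TPM and Emb, embigin, at 1.32 and 1.27. The others were below 1 TPM, with Lrp1 at 0.47 and 0.60, Cd33 at 0.50 and 0.28, and Lrp2 and Itln1 at 0 counts.

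Markers of other blood cells give the setting of these levels, beside 12.6% of nuclear protein-coding genes at 1 TPM or more in both libraries. Monocyte markers reached 1 TPM in both libraries for 1 of 10 genes, Ly6c2 (22.62 and 24.78 TPM), of a summed 26.7 and 28.5 TPM. The calprotectin genes, which monocytes also express, together stood 12.9- and 17.0-fold above the sum of all 10 monocyte markers in TPM, and 4.0- and 5.77-fold above it in expected counts. Lyz2, listed above with the granule genes, is not among these 10 markers and alone exceeded their sum, at 39.44 and 53.15 TPM. Macrophage markers were at 1 TPM or more for 5 of 10 (sum 11.9 and 15.3 TPM), those of eosinophils, basophils and mast cells for 5 of 11 (13.6 and 15.8), B cell markers for 4 of 8 (18.3 and 19.9), T and NK cell markers for 1 of 9 (3.03 and 4, with Cd8a at 0) and megakaryocyte markers for 0 of 7 (2.38 and 3.53). The part of other cell types in the members' levels was not tested.

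**Figure D3:**
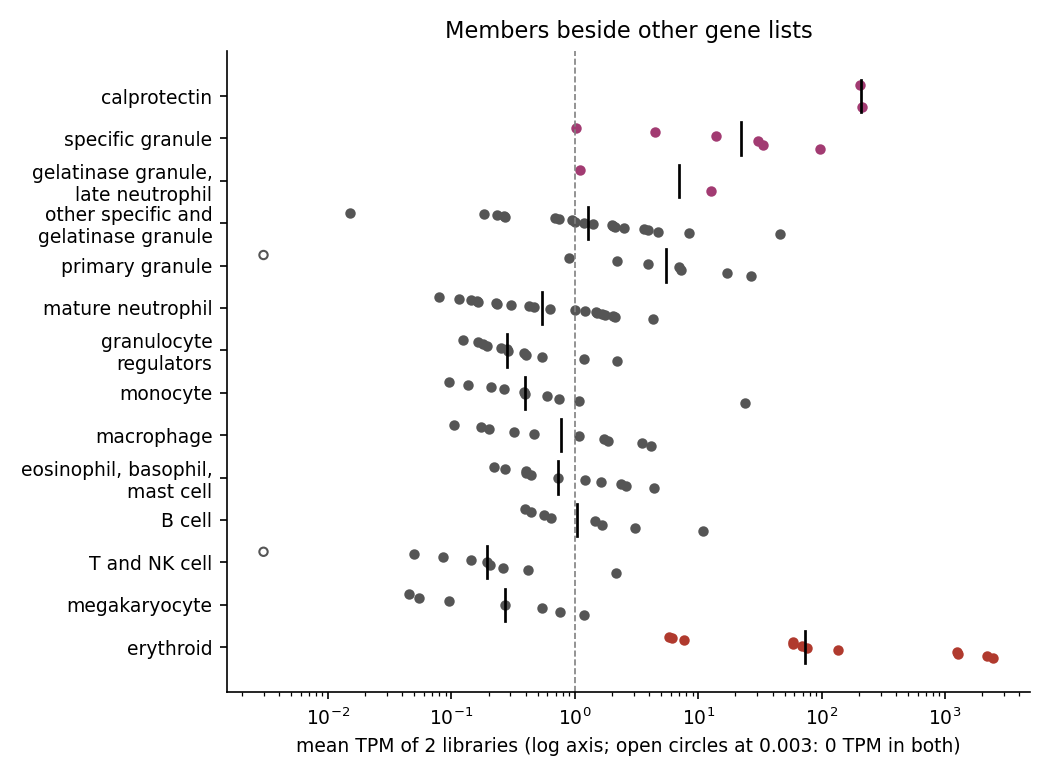
Mean TPM of the 2 libraries on a log axis for each gene of 14 lists, with a vertical bar at each list's median and open circles for genes at 0 in both. The 10 members, in purple, reach from 1.03 to 211 TPM, a range that overlaps that of the erythroid genes, in red.

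Replicates 1 and 2 were compared on expected counts as a log2 ratio, centred on the median of 9078 nuclear protein-coding genes with 20 or more counts on average. The median before centring was 0.21. All 10 members passed this filter, and all 10 were higher in replicate 2, against 50.0% of all genes tested, a share fixed by the centring, and 49.3% of the 856 genes with a mean count of at least 1000. The median was -0.28 (range -1.12 to -0.10), and the quartiles of all genes were -0.38 and 0.38. With 1 library on each side this describes these libraries and has no replicate check.

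By size, 3 members were over 25% higher in replicate 2, against 27.6% of genes, so their share is near the background. They were S100a9 (-0.37, interval -0.42 to -0.33), Camp (-0.40, interval -0.50 to -0.30) and Mmp8 (-1.12, interval -1.39 to -0.86). No member was over 25% higher in replicate 1, against 28.1% of genes. Mmp8 alone was over 2-fold higher in replicate 2, at 2.17-fold, against 8.59% of genes. Of the 7 members with a mean count of at least 1000, 2 (S100a9 and Camp) were over 25% higher in replicate 2, against 6.66% of the 856 genes of that depth, whose quartiles were -0.14 and 0.16. The counting interval excluded 0 for 8 of 10 members, all but Retnlg (-0.10, interval -0.26 to 0.05) and Mmp9 (-0.29, interval -0.59 to 0.003). The same count was not made over all genes tested, so its background is unknown. At high counts a small difference can exclude 0, as for the erythroid marker Slc4a1 (-0.12, interval -0.13 to -0.10).

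The primary granule genes differed less, with a median of 0.08 and 2 of 7 genes higher in replicate 2, among them Ctsg at -0.46 (interval -0.61 to -0.31). Mpo stood at 0.04. Of the other specific and gelatinase granule genes, 14 of 19 were higher in replicate 2 (median -0.21), and of the erythroid markers 10 of 12 (median -0.08). Mature neutrophil genes were divided, with 10 of 18 higher in replicate 2 (median -0.07). The difference between these lists was not tested.

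**Figure D4:**
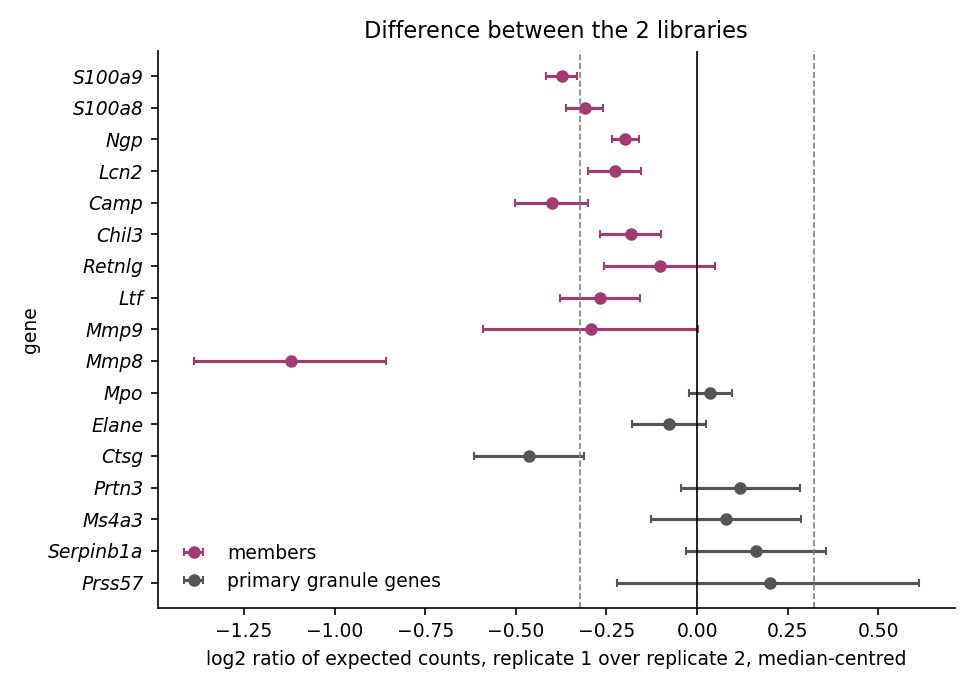
Centred log2 ratio of expected counts, replicate 1 over replicate 2, for the 10 members and the 7 primary granule genes with enough counts, with 95% counting intervals; dashed lines mark a 25% difference (0.32 on the log2 scale). All member points lie left of 0, from -0.10 for Retnlg to -1.12 for Mmp8, and 5 of the 7 primary granule points lie right of it.

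At the transcript level 21 transcripts of the members were listed, and 6 members had a single one. The leading transcript carried over 90% of the gene's TPM for 9 of 10 members. For S100a9 it was S100a9-201 with 98.1% and 94.6%, the rest falling to S100a9-202, and for Lcn2 it was Lcn2-201 with 98.7% and 96.9%. Mmp9 was the exception: Mmp9-204, a processed transcript of 1125 nt with no annotated protein, was assigned 78.1% and 73.2%, and the coding Mmp9-201 of 3175 nt 21.9% and 26.8%. In TPM the coding transcript of Mmp9 stood at 0.21 and 0.33, from 86.19 and 104.52 expected counts. The assignment of reads between overlapping transcripts is the authors' estimate, and its error was not given a value here.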

How the data were processed

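Total RNA of 2 mouse erythroid progenitor libraries was used, 1 gene table and 1 transcript table for each. Per the deposited descriptions, the authors quantified each library separately against mm10 and GENCODE M4. Which aligner and quantifier they ran, and with which strand setting, is not given in the sources used. Per the file headers, the expected counts are the authors' estimated reads per gene or transcript, which can be fractional. TPM values were scaled by the authors over every entry, with mitochondrial RNA and spike-ins included. The deposited FPKM values, scaled by length and depth, served as an alternative. The deposited isoform percent is a transcript's share of its gene's TPM, per the file headers.

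Identifiers were matched without version to GENCODE release 21, for 42462 of 43346 Ensembl genes, and all 196 genes of 20 lists were found. Entries with no name held 0 and 8 counts, 0% and 7.23e-06% of the total. The members and lists were chosen with earlier results of these data known. Named are all members, every primary granule gene and regulator, the genes next in rank to S100a9, close relatives, and from other lists only genes among the 4 highest by mean TPM or, where there were at most 3, at 0 counts; Gata1, Klf1, Slc4a1, Chil4 and Ncf1 were named beside a result. Log2 ratios between libraries used expected counts with 0.5 added, and levels are compared between genes in TPM. Intervals are 95% counting intervals from an exact binomial split of the counts, and no p-value was computed, since there is 1 group. Promoters came from RefSeq tables. Scripts ran in Python 3.11.15 with numpy 2.4.6, pandas 2.3.3 and scipy 1.17.1, and were tested on simulated data. Scaling alternatives used edgeR 4.0.16 and DESeq2 1.42.0 for factors only. Also tried were posterior means, FPKM, other minimums, denominators and folds, and each library alone.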

Additional observations from a re-analysis of the deposited data

How the results depend on the processing

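Of 48 alternatives for the group results, 37 stayed near the reported value and 11 moved, and no direction reversed. Near meant within the SD of the 2 libraries for levels and ratios within a library, and within 1.5-fold for counts. For the median ratio between libraries it meant within the median half-width of the members' counting intervals. With 2 libraries, leaving out 1 cannot move a level past their SD. FPKM ratios and posterior mean counts nearly repeat the reported values, so the 37 is no measure of robustness. The members' share was 3.37% without the 4 adult globin genes in the denominator and 0.771% without S100a8 and S100a9, an alternative chosen after seeing the data, as were those below that leave out this pair. The median TPM was 873 on the rescaled scale and 13.4 without the pair. The log2 ratio of members to primary granule genes was 2.11 on expected counts and 1.57 without the pair, and that of S100a9 to S100a8 was 0.61 on expected counts. Scaling by spike-in totals, which rest on 4084 and 2291 counts, moved the median of all genes by -0.62, the members' median to -0.90 and the members over 25% apart to 10, beside 70.9% of all genes higher in replicate 2 by that much; relative to that shift the members' median is unchanged by construction. With a 1.5-fold minimum the count was 1, and with 2-fold also 1. All 10 members were higher in replicate 2 under all 8 other scalings, beside 83.7% of all genes under spike-in totals and 48.6 to 50.0% under the rest. The edgeR and DESeq2 factors, 0.2098 and 0.2108 on the log2 scale, nearly repeat the median used for centring, 0.2102. All scalings rework the same 2 libraries, so they are no separate checks. From each library alone, the share ranged from 2.21 to 2.61%, the median from 18.4 to 25.7 TPM and the count at 1 TPM from 8 to 10. A ratio between replicates cannot be formed without one of them. No paired analysis was possible because the study has 1 group. Depth limits Mmp8 and Mmp9 most, with 184 to 346 and 186 to 197 counts.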
